A study of Rattus norvegicus with 10 samples.

Results

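The mRNAs described are those of the nuclear-encoded subunits of oxidative phosphorylation. They were taken by gene symbol: Nduf followed by a, b, c, s or v and a digit for complex I, Sdha to Sdhd for complex II, Uqcr for complex III, Cox4 to Cox8 for complex IV, and Atp5 for complex V, the ATP synthase. The rule found 81 rows of the 10184 in the deposited table, with 80 symbols, since Ndufb2 stood on 2 rows. The cells were RCS cells, a rat chondrosarcoma line that lays down a cartilage-like matrix, untreated and grown in serum-containing medium. There were 5 wild-type (WT) libraries and 5 libraries of RCS cells with a knockout of ARSL (a sulfatase that works in the secretory pathway), all at 48 h after seeding. The labels call the libraries biological replicates but do not say whether the KO cells were 1 clone or several, or whether replicates were separate cultures. A difference between genotypes therefore cannot be told apart from another difference between the 2 lines of cells, and the p-values measure the spread between these libraries. The design's comparison, KO against WT, asks how the loss of ARSL alters mRNA levels in these cells.

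In the respiratory chain, complexes I and II pass electrons from NADH and succinate to ubiquinone, complex III passes them on to cytochrome c, and complex IV hands them to oxygen. Complexes I, III and IV pump protons across the inner mitochondrial membrane, and the ATP synthase uses the gradient to make ATP. Complex II is encoded wholly in the nucleus, whereas the other complexes join nuclear-encoded subunits with a few made from mitochondrial DNA. Chondrocytes live in tissue with little oxygen and are known for making much of their ATP by glycolysis.

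Values are given as normalised reads, that is, reads per gene recovered from the deposited log2-like values and divided by the library's size factor. The libraries held 2065594 to 2591819 recovered reads over the listed genes. Differences and tests are on the deposited log2-like scale, which compresses the fold changes of genes with few reads. Tested were the 8431 genes whose mean log2-like value was at least that of about 10.7 normalised reads. The test was limma, with Benjamini-Hochberg adjustment over all of them. Of the 81 rows, 79 were tested: 38 of complex I, 4 of complex II, 9 of complex III, 11 of complex IV and 17 of complex V. The other two were Ndufs5-ps1, with a mean of 4.98 normalised reads in WT and 6.49 in KO, and Uqcr11l1, with 4.19 and 5.83. Among the 81 rows, 12 are named as copies of another gene (-ps, or l and a digit), and 10 of these were tested. Reads of a gene and its near-identical copy may have been split between their rows, so such rows are uncertain. The sources used here do not say whether counting used the strand.

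Of 10 chondrocyte markers 9 were listed (Sox9 was not among the symbols), with summed levels of 42270 to 72990 normalised reads in WT and 37350 to 50710 in KO. Of the 6 fibroblast markers only Pdgfra was listed, with at most 10.9 normalised reads in a library, and the 3 blood markers had no row. Of the 5 muscle markers Des and Tnnt3 were listed, and together they had 24.2 to 50.3 normalised reads in WT and 29.5 to 45.7 in KO. The targeted gene had no row under its symbol and was not analysed here, so the genotype labels rest on the submitters' word. In the expression values, though by no label, WT 3 and WT 4 stood apart from WT 1, WT 2 and WT 5, and ARSL KO 4 stood apart from the other KO libraries to a lesser degree. limma's array quality weights, in which a low value marks a library that departs from its group, were 0.324 and 0.349 for WT 3 and WT 4 and 0.71 for KO 4, against 1.14 to 1.72 for the others. Where a printed difference or median difference moved by over 1.5 times or turned without these 3 libraries, its value without them is given too.

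As a whole, the subunit mRNAs took 2.42 ± 0.186% of the reads of WT libraries and 2.48 ± 0.148% of those of KO libraries (SD, n = 5 each), and the ranges overlapped. By complex, the share was 0.581 ± 0.0422% in WT and 0.595 ± 0.0229% in KO for complex I, and 0.0434 ± 0.00512% and 0.0426 ± 0.00312% for complex II. Complex IV took 0.602 ± 0.0361% in WT and 0.616 ± 0.0564% in KO, and complex V 0.888 ± 0.0991% and 0.945 ± 0.06%. For all 4 of these the ranges overlapped. For complex III they did not. Its 9 tested rows and Uqcr11l1 took 0.308 ± 0.00494% of the reads in WT, from 0.300% to 0.314%, and 0.277 ± 0.0079% in KO, from 0.269% to 0.289%. In bulk RNA, fewer reads from every cell and fewer cells with a high level cannot be told apart. Without the rows of Uqcrb and Uqcrbl1, a removal chosen after the values were seen, the share was 0.164% to 0.180% in WT and 0.156% to 0.174% in KO, and the groups overlapped. These sums cover only the rows found by the rule and carry no test. Subunits without such a row are left out, among them Uqcrq of complex III. Cyc1, another complex III subunit, falls outside the rule and was counted with the electron carriers, so it is left out too.

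With all 10 libraries, 0 of the 79 tested members passed an adjusted p of 0.05 in limma, beside 1.14% of all tested genes. limma-voom on the recovered reads also called 0, beside 1.04%, and limma with quality weights called 2, Uqcrbl1 and Cox4i2, beside 2.6%. At an unadjusted p under 0.05 there were 6 members, all lower in KO, namely Uqcrbl1, Uqcrb, Ndufb2, Cox6b1, Ndufa3 and Cox5b, where 13.5% of all tested genes reached that level, 7.32% with KO lower. With voom there were 7, beside 13.4%. Apart from Cox4i2, the 95% intervals of the tested members lay between -0.66 and 0.53 on the log2-like scale. The median difference KO minus WT was 0.00 for complex I, -0.06 for complex II, -0.11 for complex III, -0.04 for complex IV and 0.06 for complex V, against 0.01 for all tested genes. Within complex III, 8 of 9 rows had a negative difference, against 18 of 38 in complex I, 3 of 4 in complex II, 7 of 11 in complex IV and 8 of 17 in complex V.

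**Figure D1:**
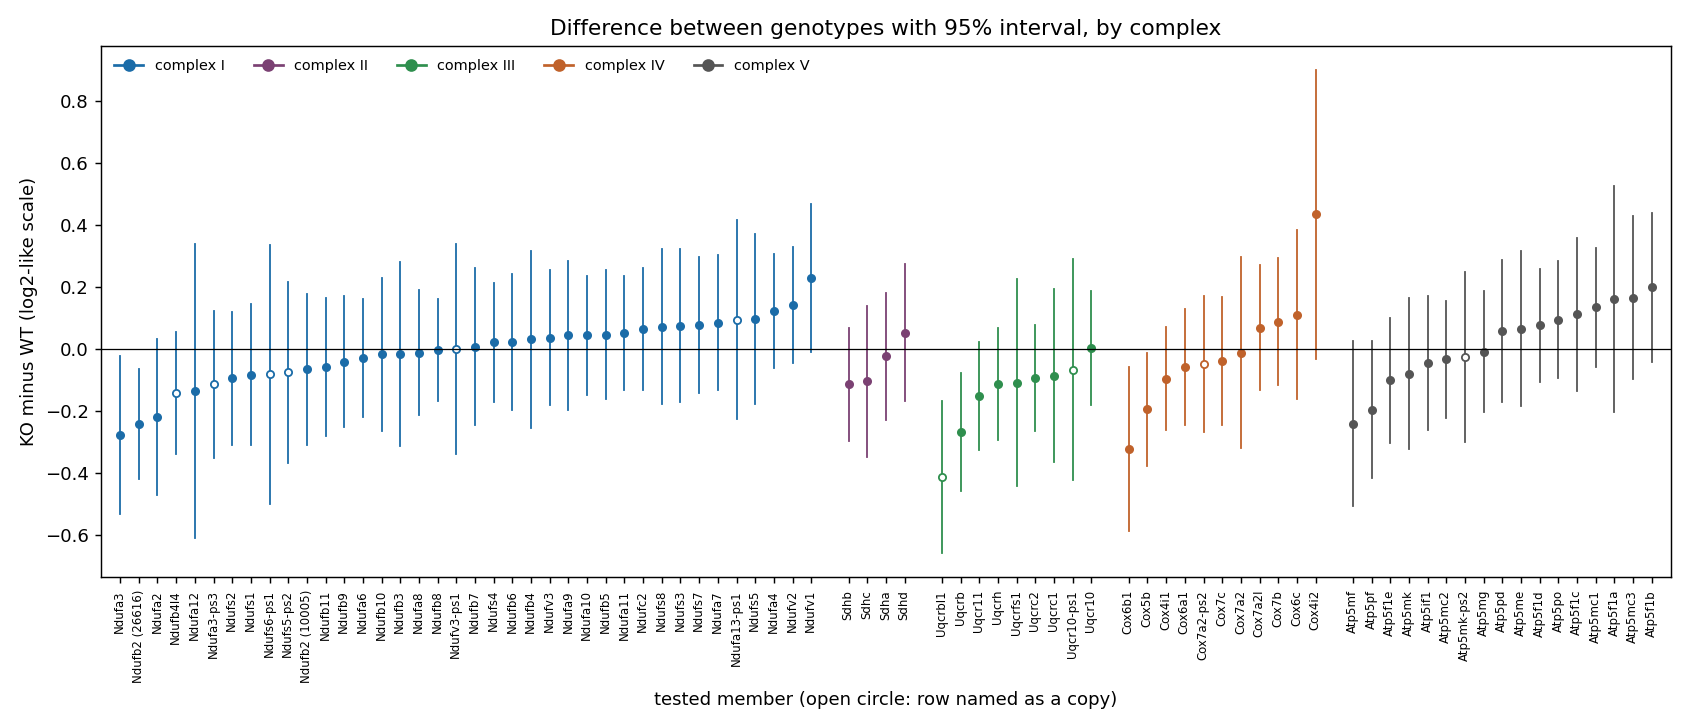
Difference KO minus WT of each tested member with its 95% interval from limma, on the log2-like scale, in the order of size within each complex; open circles are rows named as copies. Of the 9 rows of complex III, 8 lie below 0, down to -0.41, whereas complexes I and V have about as many members above as below.

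In 4 members every KO library lay below every WT library, and in 0 every KO library lay above, beside 2.4% and 1.86% of all tested genes. These 4 were Uqcrb of complex III, Cox4i1 and Cox5b of complex IV, and Ndufb2 of complex I. Uqcrb (ENSRNOG00000024967), a small subunit of complex III that takes part in ubiquinone binding, had 2360, 2449, 2713, 2728 and 2413 normalised reads in WT 1 to WT 5 and 2096, 2154, 2141, 2206 and 1895 in ARSL KO 1 to 5. The highest KO library, KO 4, stood below the lowest WT library, WT 1, and WT 3 and WT 4 were the highest of all. The means were 2533 ± 175 for WT and 2098 ± 120 for KO (SD, n = 5 each), 1.207-fold higher in WT, and the difference was -0.27 on the log2-like scale (SE 0.09, 95% interval -0.46 to -0.08, limma adjusted p = 0.19).

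Uqcrbl1 (ENSRNOG00000032204), a row named as a copy of Uqcrb, had 624, 679, 519, 458 and 558 normalised reads in WT 1 to 5 and 432, 502, 390.5, 373 and 378 in KO 1 to 5. Here WT 3 and WT 4 were the lowest WT libraries, and WT 4 fell within the KO range. The difference, -0.41 on the log2-like scale (SE 0.11, 95% interval -0.66 to -0.17, limma adjusted p = 0.118), had the smallest p of complex III. Since reads may be divided between the pair, their sum was also taken: it was 2985, 3128, 3232, 3186 and 2971 normalised reads in WT 1 to 5 and 2527, 2656, 2531, 2578 and 2274 in KO 1 to 5. The sum kept the groups apart in all 10 libraries, with means of 3100 ± 118 and 2513 ± 144 (SD, n = 5 each) and a WT level 1.23-fold higher, or 1.21-fold without WT 3, WT 4 and KO 4.

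Among the other rows of complex III, the iron-sulfur protein Uqcrfs1 had 527, 528, 281, 317 and 451 normalised reads in WT 1 to 5 and 380, 387, 406, 308 and 409 in KO 1 to 5. WT 3 and WT 4 held the lowest and the third lowest values, with KO 4 between them, so the groups overlapped through these libraries. The difference was -0.11 on the log2-like scale (SE 0.16, 95% interval -0.44 to 0.23, limma adjusted p = 0.789), or -0.31 without WT 3, WT 4 and KO 4. The core protein Uqcrc1 had 279.7 to 422 normalised reads in WT and 248 to 369 in KO, and its difference was -0.09 (limma adjusted p = 0.803), or 0.05 without WT 3, WT 4 and KO 4. Uqcr10, a small subunit and the only row of complex III without a negative difference, had means of 693 ± 58.5 for WT and 694 ± 36.7 for KO (SD, n = 5 each).

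In complex IV, Cox5b (ENSRNOG00000016660), a zinc-binding subunit on the matrix side of the oxidase, had 2168, 2233, 2224, 2344 and 2555 normalised reads in WT 1 to 5 and 2051, 2012, 2063, 2051 and 1865 in KO 1 to 5. Every KO value was below the lowest WT value, that of WT 1. The WT mean was 1.148-fold that of KO, and the difference was -0.19 on the log2-like scale (SE 0.09, 95% interval -0.38 to -0.01, limma adjusted p = 0.331). Cox4i1 (ENSRNOG00000017817), the widely expressed form of subunit IV, had 492, 498, 494, 491 and 535 normalised reads in WT 1 to 5 and 489.5, 486, 449, 466 and 448 in KO 1 to 5. Its groups were only just apart, KO 1 lying next below WT 4, and the difference was -0.09 on the log2-like scale (SE 0.08, 95% interval -0.26 to 0.07, limma adjusted p = 0.621). Cox6b1, a subunit on the intermembrane side, had 202, 279, 180.5, 203 and 223 normalised reads in WT 1 to 5 and 182, 194, 184, 128 and 144 in KO 1 to 5. The groups overlapped, and the difference, the most negative of complex IV, was -0.32 on the log2-like scale (SE 0.12, 95% interval -0.58 to -0.06, limma adjusted p = 0.253).

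Cox4i2, the second form of subunit IV, known as the form that low oxygen induces, had the most positive difference of all members. It had 24.4, 22.3, 85.3, 86.0 and 35.9 normalised reads in WT 1 to 5 and 79.4, 79.3, 68.3, 93.7 and 49.3 in KO 1 to 5. WT 3, WT 4 and KO 4 held the 3 highest values, while WT 1, WT 2 and WT 5 were below every KO library. With all libraries the difference was 0.43 on the log2-like scale (SE 0.22, 95% interval -0.03 to 0.90, limma adjusted p = 0.402), and without WT 3, WT 4 and KO 4 it was 0.77. For the remaining forms the groups overlapped. Cox6a1 averaged 1920 ± 144 for WT and 1842 ± 85.4 for KO, Cox7a2 164 ± 37.4 for WT and 161 ± 30.9 for KO, and Cox7a2l, a factor that joins complexes III and IV into supercomplexes, 728 ± 82.4 for WT and 763 ± 49.2 for KO (SD, n = 5 each). Ndufa4, first placed in complex I and now assigned to complex IV in general, averaged 2089 ± 133 for WT and 2278 ± 117 for KO (SD, n = 5 each), and its groups overlapped. By its symbol it was kept with complex I in the counts, medians and read shares given here.

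**Figure D2:**
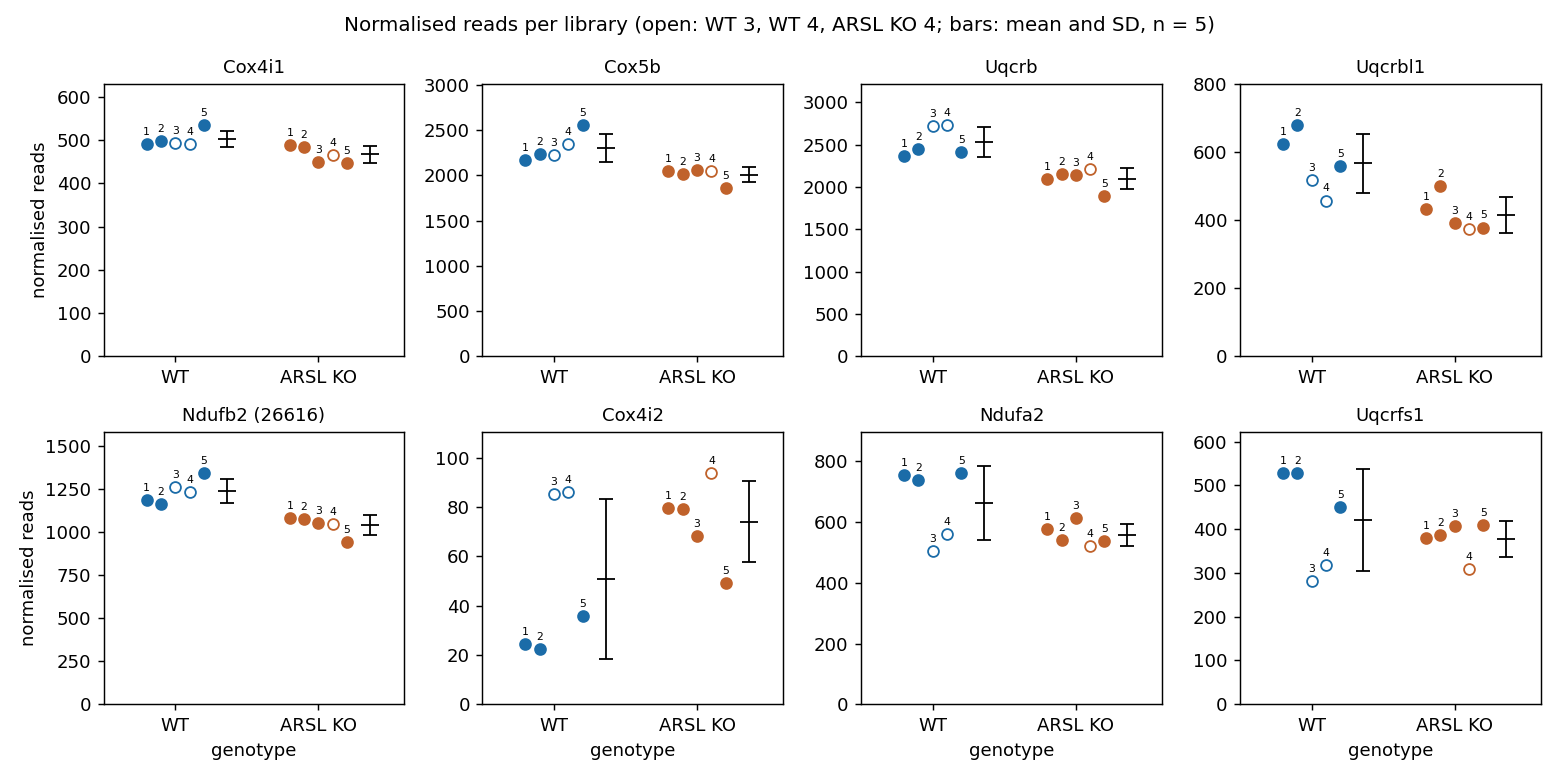
Normalised reads of 8 members in each library, numbered by replicate, with mean and SD (n = 5) beside them; open points are WT 3, WT 4 and ARSL KO 4, and Ndufb2 is the row ENSRNOG00000026616. For Cox4i1, Cox5b, Uqcrb and Ndufb2 all KO points lie below all WT points, whereas for Cox4i2, Ndufa2 and Uqcrfs1 the open WT points lie away from the filled ones.

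In complex I, the accessory subunit Ndufb2 was listed on 2 rows. The larger (ENSRNOG00000026616) had 1185, 1161, 1264, 1235 and 1342 normalised reads in WT 1 to 5 and 1084, 1077, 1052, 1048 and 943 in KO 1 to 5. No KO library reached the lowest WT library, WT 2, and the difference was -0.24 on the log2-like scale (SE 0.08, 95% interval -0.42 to -0.06, limma adjusted p = 0.211). The smaller row (ENSRNOG00000010005) averaged 23.1 ± 6.04 for WT and 20.9 ± 5.1 for KO (SD, n = 5 each), and the sum of both rows was 1178 to 1367 in WT and 964 to 1113 in KO. With so few reads the smaller row could not have closed the gap between the groups, so the sum adds nothing to the larger row. Ndufa3, another accessory subunit, had 173, 171, 207, 158 and 207 normalised reads in WT 1 to 5 and 165, 156, 99.7, 149 and 157 in KO 1 to 5. Its KO 3 value was far below the rest, and the difference, the most negative of complex I, was -0.28 on the log2-like scale (SE 0.12, 95% interval -0.53 to -0.02, limma adjusted p = 0.317). Without KO 3 it was -0.18 (limma adjusted p = 0.572), less negative than that of Ndufb2 in the same fit, -0.24.

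The 7 nuclear core subunits of complex I, which carry the flavin, the iron-sulfur clusters and the quinone site, had a median difference of 0.08, with 5 positive and 2 negative, or 0.0027 without WT 3, WT 4 and KO 4. The most positive was that of Ndufv1, the flavin-binding subunit, with 373, 404, 323, 256 and 354 normalised reads in WT 1 to 5 and 465, 404, 389, 386 and 381 in KO 1 to 5. The groups overlapped, KO 1 being the highest of all libraries and WT 4 the lowest, and the difference was 0.23 on the log2-like scale (SE 0.11, 95% interval -0.01 to 0.47, limma adjusted p = 0.388). It was 0.14 without WT 4 and 0.11 without WT 3, WT 4 and KO 4. The 25 tested accessory rows, copies aside, had a median of 0.01, with 13 positive and 12 negative, or -0.02 without the 3 libraries.

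Succinate dehydrogenase, complex II, is also an enzyme of the citric acid cycle. Its flavoprotein Sdha averaged 157 ± 11.7 for WT and 155 ± 19.4 for KO, and its iron-sulfur subunit Sdhb 224 ± 21.2 for WT and 203 ± 6.49 for KO (SD, n = 5 each). The membrane anchors Sdhc and Sdhd averaged 370 ± 65.1 for WT and 339 ± 29.4 for KO, and 242 ± 33.4 for WT and 252 ± 26.2 for KO (SD, n = 5 each). The groups overlapped for all 4. The most negative difference, for Sdhb, was -0.11 on the log2-like scale (SE 0.09, 95% interval -0.30 to 0.07, limma adjusted p = 0.575), or -0.069 without WT 5. Without WT 3, WT 4 and KO 4 that of Sdhc was more negative, at -0.24. The only positive one, for Sdhd, was 0.05 (limma adjusted p = 0.848), and turned to -0.025 without WT 3, WT 4 and KO 4.

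In the ATP synthase, the F1 rows, which form the catalytic head and its stalk, had a median difference of 0.11, with 4 of 5 positive. The 11 other rows, copies aside, had a median of -0.01, or -0.04 without WT 3, WT 4 and KO 4. Atp5f1b, the catalytic beta subunit, had 3433, 3529, 2603, 2658 and 3284 normalised reads in WT 1 to 5 and 3687, 3517, 3830, 3079 and 3629 in KO 1 to 5. WT 3 and WT 4 were the lowest libraries, and the difference was 0.20 on the log2-like scale (SE 0.11, 95% interval -0.04 to 0.44, limma adjusted p = 0.468), or 0.10 without WT 3, WT 4 and KO 4. Atp5mf, a small subunit of the membrane part, had 1374, 1466, 1171, 1123 and 1624 normalised reads in WT 1 to 5 and 1180, 1199, 1362, 950.5 and 994 in KO 1 to 5. The groups overlapped, and the difference, the most negative of complex V, was -0.24 on the log2-like scale (SE 0.12, 95% interval -0.51 to 0.03, limma adjusted p = 0.418).

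Without WT 3, WT 4 and ARSL KO 4, a choice made after these libraries were seen to stand apart, 4 of the 79 members were called, beside 3.56% of all tested genes. Cox4i2 rose in KO by 0.77 (SE 0.14, limma adjusted p = 0.00114), with means of 27.5 normalised reads in the 3 WT libraries and 69.1 in the 4 KO libraries. Uqcrbl1 changed by -0.51 (SE 0.10, limma adjusted p = 0.0026), and Uqcrfs1 by -0.31 (SE 0.09, limma adjusted p = 0.046). The last of the 4, the complex I accessory subunit Ndufa2, was named after its values were seen. It had 754, 739, 506, 560.2 and 761 normalised reads in WT 1 to 5 and 576, 541, 612, 521 and 538 in KO 1 to 5, where WT 3 lay below and WT 4 within the KO range. Its difference without the 3 libraries was -0.38 (SE 0.08, limma adjusted p = 0.00762), against -0.22 (limma adjusted p = 0.44) with all 10.

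In the same 7 libraries 14 members had every KO value below every WT value and 2, Cox4i2 and Cox7a2l, the reverse, beside 7.79% and 6.8% of all tested genes. The 14 held 4 rows of complex I, 1 of complex II (Sdhc), 3 of complex III, 3 of complex IV and 3 of complex V. The median differences were then -0.04 for complex I, -0.08 for complex II, -0.12 for complex III, 0.01 for complex IV and -0.03 for complex V, against 0.01 for all tested genes. The medians of complexes I, IV and V thus changed sign, as did that of the F1 rows, from 0.11 to -0.03, while those of complexes II and III stayed negative. For complexes I and IV the medians lay close to 0 to begin with or after the change. That of complex I started at 0.0044. Without its row named as a copy, complex IV kept a negative median, -0.0247 with all libraries and -0.0041 without the 3. Of the 79 members, 23 changed sign, 15 from positive to negative and 8 the other way. With WT 3 and WT 4 alone left out, 3 members were called, Uqcrbl1, Ndufa2 and Cox4i2, beside 1.87% of all tested genes.

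WT 3 and WT 4 were set beside WT 1, WT 2 and WT 5 as a description with no test, since no label separates them. Both lay below the other 3 WT libraries in 41 of the 79 members and both above in 9, against 29% and 27.2% of all tested genes. By complex, both lay below in 21 of 38 rows of complex I (6 of its 7 core subunits), 2 of 4 of complex II, 3 of 9 of complex III, 3 of 11 of complex IV and 12 of 17 of complex V. The median of WT 3 and WT 4 minus the other WT was -0.32 for complex V, -0.19 for complex II, -0.16 for complex I, -0.04 for complex IV and -0.02 for complex III, against -0.01 for all tested genes. The share of reads in the 81 rows was 2.24% in WT 3 and 2.21% in WT 4, against 2.51%, 2.57% and 2.58% in WT 1, WT 2 and WT 5. In KO 4 it was 2.25%, against 2.43% to 2.65% in the other KO libraries. Transcripts with the prefix Mt- were lower in WT 3 and WT 4 as well, at 4.59% and 4.47% of the reads against 6.26% to 6.41% in the other WT libraries, but KO 4 had 4.95%, within the KO range of 3.67% to 5.03%. Their part in the subunit values was not tested.

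**Figure D3:**
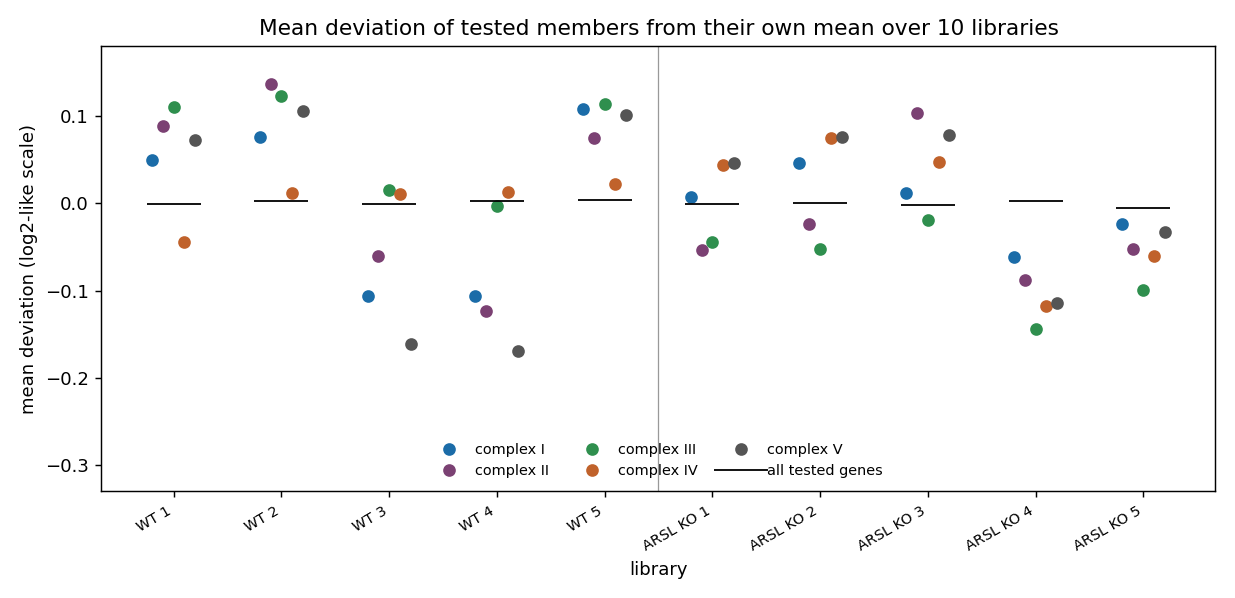
Mean deviation, on the log2-like scale, of the tested rows of each complex from each row's own mean over the 10 libraries; the short line is the same for all tested genes, which stays within 0.01 of 0. In WT 3 and WT 4 complexes I, II and V lie below that line, and in ARSL KO 4 and also ARSL KO 5 all 5 complexes do.

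Among the tested members, Ndufa12, an accessory subunit of complex I, had the most negative difference between these WT libraries. It had 75.8, 65.8, 20.8, 22.9 and 80.3 normalised reads in WT 1 to 5 and 31.1, 51.0, 40.6, 26.4 and 61.9 in KO 1 to 5. WT 3 and WT 4 were 3.38-fold lower on average than the other WT libraries, and KO 4 was the lowest KO library. The fold for Atp5f1a, the alpha subunit of F1, was 1.71, with 512, 494, 246, 322 and 448 normalised reads in WT 1 to 5 and 481, 510.5, 426, 337 and 479.8 in KO 1 to 5. Uqcrfs1 was 1.68-fold lower, Cox7a2 1.54-fold and Sdhc 1.37-fold.

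Other members stood higher in WT 3 and WT 4. Cox4i2 was 3.11-fold higher there than in the other WT libraries, and Uqcrc1 1.42-fold, with 294, 279.7, 422, 419.7 and 319 normalised reads in WT 1 to 5. Ndufb11, an accessory membrane subunit of complex I, was 1.22-fold higher, and Atp5mc2, one of the genes for the rotor ring subunit c, 1.11-fold. The largest value of complex II, that of Sdha, was 1.02-fold. Subunits of one complex therefore did not share a direction in these libraries: complexes I, III, IV and V each held members both above and below. ARSL KO 4 was the lowest KO library in 29 of the 41 members in which WT 3 and WT 4 were both below, against 56.4% of all such genes. It was the highest in 5 of the 9 in which they were both above, against 53%; these were Ndufb11, Uqcrb, Uqcrc1, Cox4i2 and Atp5mc2.

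**Figure D4:**
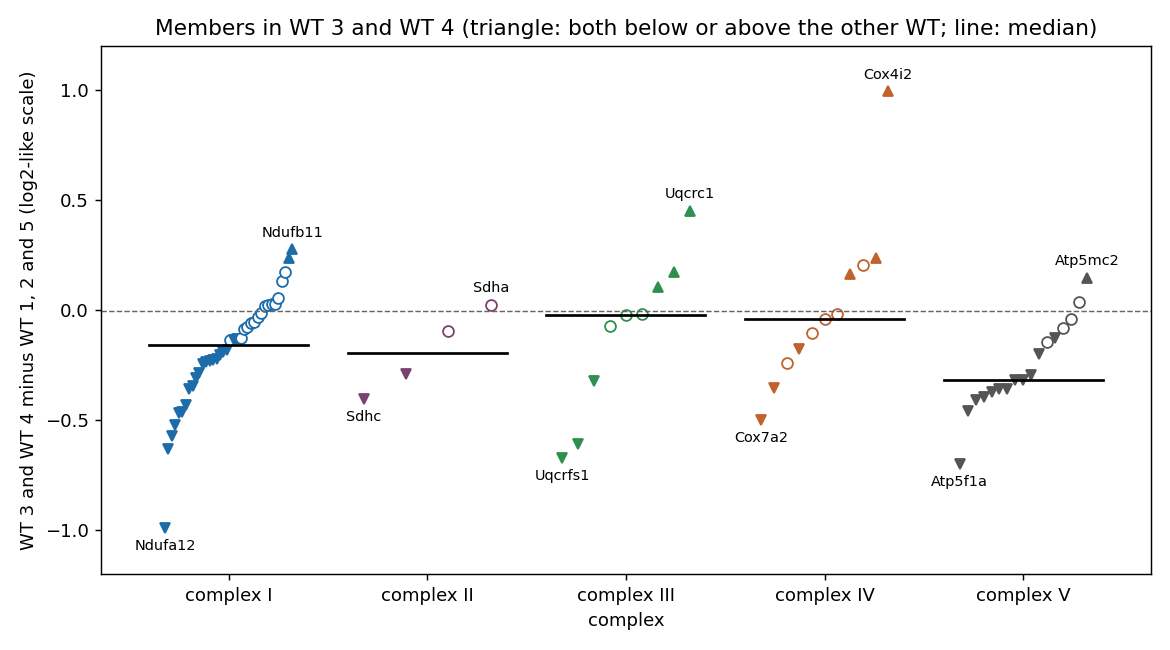
Mean of WT 3 and WT 4 minus the mean of WT 1, WT 2 and WT 5 for each tested member, on the log2-like scale, with the median of each complex as a line; triangles are members with both libraries below or above all 3 others. Ndufa12 and Cox4i2 mark the ends, at -0.99 and 0.99, and the median of complex V, -0.32, is the lowest.

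The upstream sequences of 4 members are shown because they span the patterns above: Cox5b and Ndufb2 lay lower in every KO library, Ndufa12 was far lower in WT 3 and WT 4, and Atp5mc2 somewhat higher there. They are the 250 bases before the annotated start in RefSeq, build GRCr8, read 5′ to 3′ on the gene's strand, which is another assembly than the rn6 used for counting. The positions are chr9:46417587-46417836 (+ strand), chr4:69334057-69334306 (+ strand), chr7:30658066-30658315 (+ strand) and chr7:135678219-135678468 (- strand). The Ndufb2 entry was matched by symbol, and which of the 2 rows it belongs to is not given. Capitals mark matches to 4 motifs of factors known to act on respiratory genes, searched on both strands: the NRF1 palindrome of 10 letters, ETS/GABP (CCGGAAG), YY1 (AAGATGGCG) and ERR (AAGGTCA).
Cox5b: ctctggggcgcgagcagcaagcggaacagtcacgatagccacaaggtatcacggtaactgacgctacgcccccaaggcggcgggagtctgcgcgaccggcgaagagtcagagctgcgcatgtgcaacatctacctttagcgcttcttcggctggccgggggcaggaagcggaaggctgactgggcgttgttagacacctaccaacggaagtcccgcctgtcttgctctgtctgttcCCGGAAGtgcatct
Ndufb2: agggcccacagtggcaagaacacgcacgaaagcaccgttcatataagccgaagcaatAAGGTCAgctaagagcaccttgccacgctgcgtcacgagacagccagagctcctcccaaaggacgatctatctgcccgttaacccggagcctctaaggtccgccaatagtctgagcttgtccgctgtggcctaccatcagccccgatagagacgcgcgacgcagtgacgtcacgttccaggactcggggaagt
Ndufa12: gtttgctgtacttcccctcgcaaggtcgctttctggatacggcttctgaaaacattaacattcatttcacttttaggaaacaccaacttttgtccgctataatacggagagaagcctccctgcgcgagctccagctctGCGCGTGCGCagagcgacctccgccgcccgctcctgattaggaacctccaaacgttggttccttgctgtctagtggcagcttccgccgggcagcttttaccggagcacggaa
Atp5mc2: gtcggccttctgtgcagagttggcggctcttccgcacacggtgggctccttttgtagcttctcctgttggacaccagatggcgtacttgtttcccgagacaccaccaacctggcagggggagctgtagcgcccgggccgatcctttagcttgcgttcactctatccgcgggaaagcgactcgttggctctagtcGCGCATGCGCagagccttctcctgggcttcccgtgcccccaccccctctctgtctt
In these windows the Cox5b match is of the ETS/GABP motif, the Ndufb2 match of the ERR motif, and those of Ndufa12 and Atp5mc2 of the NRF1 motif. WT 3 and WT 4 stood below the other WT libraries for Ndufa12 and above them for Atp5mc2, and whether the motif bears on this was not tested.

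A promoter window, from 250 bases before to 50 after the start, was found by symbol for 61 of the 80 member symbols. The NRF1 motif was in the window of 19.7% of these members, against 4.82% of all 27457 genes with a window and 12.5% of the 6484 tested genes with one. The ETS/GABP motif was in 27.9% against 9.63% and 21.3%, YY1 in 14.8% against 1.99% and 4.67%, and ERR in 13.1% against 4.83% and 2.73%. Among the 32 members with WT 3 and WT 4 both below, NRF1 was in 15.6% and ETS/GABP in 31.2%, and among the 29 others each was in 24.1%. YY1 was in 18.8% and 10.3% of these members, and ERR in 15.6% and 10.3%. A match is a description of the letters and no evidence of binding, and although some of the motifs can share letters, matches to different motifs overlapped in 0 of the 61 members.

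Around the subunits, 10 lists of other genes of the pathway were counted, and 0 of their 107 tested genes were called in limma with all 10 libraries. At an unadjusted p under 0.05 there were 13, 6 higher and 7 lower in KO, and voom called 0, with 14 at that level; of all tested genes, 13.5% in limma and 13.4% in voom reached it. Of the 12 listed subunits encoded by mitochondrial DNA, 11 had a negative difference, with a median of -0.30, and 4 had an unadjusted p under 0.05, all lower in KO. The smallest p was that of Mt-co3, a core subunit of complex IV, with 10020, 10710, 9835, 9344 and 10630 normalised reads in WT 1 to 5 and 7868, 8193, 5550, 8511 and 7951 in KO 1 to 5. Every KO library was below every WT library, and the difference was -0.42 on the log2-like scale (SE 0.12, 95% interval -0.69 to -0.16, limma adjusted p = 0.139). Without WT 3, WT 4 and KO 4 all 12 had a negative difference, with a median of -0.52. Of the 12, 8 were then called lower in KO, beside 2.22% of all tested genes. WT 3 and WT 4 both lay below the other WT libraries in 10 of the 12, beside 29% of all tested genes.

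The lists of assembly factors had medians of 0.10 for complex I (13 tested), 0.03 for complexes II and III (6), -0.03 for complex IV (10) and 0.04 for complex V (4). Without WT 3, WT 4 and KO 4 these medians were 0.02, -0.06, -0.04 and 0.11, in the same order. Uqcc1, a factor for building complex III, had 118, 126, 106, 117 and 124 normalised reads in WT 1 to 5 and 126, 162, 162, 154 and 169.5 in KO 1 to 5, and KO 1 overlapped the WT range. Its difference was 0.30 on the log2-like scale (SE 0.09, 95% interval 0.10 to 0.50, limma adjusted p = 0.154), opposite in sign to those of Uqcrb and most other complex III rows. Acad9, a complex I assembly factor, differed by 0.33 (limma adjusted p = 0.251), or 0.13 without WT 3, WT 4 and KO 4. Lrpprc, which stabilises mitochondrial mRNAs, differed by 0.31 (limma adjusted p = 0.222). Atpaf2, an F1 assembly factor, differed by 0.09 (limma adjusted p = 0.722), or 0.17 without the 3 libraries.

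The 8 tested electron carriers and other subunits had a median of -0.07, or -0.12 without WT 3, WT 4 and KO 4. Among them Etfdh, which passes electrons from fatty acid oxidation to ubiquinone, had 23.5 to 32.5 normalised reads in WT and 14.8 to 21.5 in KO. These ranges did not overlap, and the difference was -0.30 on the log2-like scale (SE 0.10, 95% interval -0.51 to -0.10, limma adjusted p = 0.164). The 13 tested regulators of respiratory gene transcription had a median of 0.04, or -0.03 without the 3 libraries. Tfb2m, a mitochondrial transcription factor, differed by -0.21 (limma adjusted p = 0.415). The 17 genes of the citric acid cycle and pyruvate dehydrogenase had a median of 0.07, or 0.0079 without the 3 libraries. Of these, Mdh2, malate dehydrogenase, stood at -0.18 (limma adjusted p = 0.36). For the 11 of coenzyme Q synthesis the median was 0.10, with Coq10b at 0.28 (0.29).

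The smallest p of all these lists was that of Vdac3, an outer membrane channel, with 902, 920.4, 745, 777 and 818 normalised reads in WT 1 to 5 and 1035, 989.5, 1133, 1077 and 1135 in KO 1 to 5. Every KO library was above every WT library, and the difference was 0.35 on the log2-like scale (SE 0.09, 95% interval 0.16 to 0.55, limma adjusted p = 0.0832). The 13 tested membrane carriers as a list had a median of 0.04. Without WT 3, WT 4 and KO 4 it was -0.08, with 9 negative and 4 positive. In 11 of the 13, WT 3 and WT 4 both lay below the other WT libraries, beside 29% of all tested genes.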

How the data were processed

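The deposited data are 1 table with 10184 gene rows and 10 library columns, which the authors put on a variance-stabilised log2-like scale. Per the submitters' processing notes, bcl2fastq, STAR 2.7.11a and HTSeq were used with the rat build rn6; the sources used here do not name the tool behind the log2-like values. Per the labels' protocols, a sequencing company made the libraries by digital mRNA-seq. Inverting the closed form of the transformation gave whole reads for 100% of values (tolerance 1e-06 reads), and these were divided by the size factors. Genes averaging at least 1 more than the table's lowest value, 4.42, were tested with limma 3.58.1 (trend, two-sided, R 4.3.3, adjusted p under 0.05 over 8431 genes); the fit was tested on simulated data. Medians, read shares, counts of libraries that do not overlap and motif matches carry no test. The members, gene lists and settings were chosen with earlier results of these data known. Named members were those without overlap, the extremes and smallest p of each complex, the extremes of WT 3 and WT 4, the Sdh genes, tissue isoforms and rows below the filter, and, from each further list, the smallest p. Alternatives were other filters, centrings, weights, variance estimates, voom, a replicate block and leaving out libraries. Sequences came from RefSeq, GRCr8. Figures were drawn with matplotlib 3.10.9.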

Additional observations from a re-analysis of the deposited data

Results flagged for a closer look

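In 52 groups of 5 libraries, those of the named tested members, 6 held 1 library whose gap to the nearest other exceeded Dixon's 95% critical value of 0.71 of the group's range. That value is set for about 1 in 20 by chance. The members were named partly by these same values and share the libraries, so the count cannot be set against that rate. Ndufa3 had 99.7 normalised reads in ARSL KO 3, where the other KO libraries had 149 to 165. In ARSL KO 5, Ndufb11 had 579 against 658 to 682, Ndufb2 (ENSRNOG00000026616) 943 against 1048 to 1084, and Cox5b 1865 against 2012 to 2063. Uqcrfs1 had 308 in ARSL KO 4 against 380.0 to 409 in the other KO libraries. Cox4i1 had 535 in WT 5 against 491 to 498 in the other WT libraries. For Cox5b, Ndufb2, Cox4i1 and Ndufa3, that library lay on the side away from the other genotype. For Ndufb11 and Uqcrfs1 it lay within the WT range, 571 to 771 and 281 to 528 normalised reads.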

How the results depend on the processing

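Leaving out each library in turn called 0 to 0 members, and 0 were called in each other setting except these: 2 with array weights, 1 with a replicate block (Uqcrbl1, limma adjusted p = 0.0421, beside 1.61% of all tested genes), 4 without WT 3, WT 4 and ARSL KO 4, and 3 without WT 3 and WT 4. Members without overlap numbered 16 in place of 4 without the 3 libraries, where fewer values have to be ordered. The complex V median became -0.058 without WT 3 and WT 4. Same-numbered libraries had correlations of -0.29 to 0.59, and 2 of 5 correlated best with their own number. With so few libraries this cannot decide whether the numbers pair them, and the labels do not say.

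Of all 79 members, 23 changed sign without the 3 libraries. Among the named members, signs turned in some setting for 9, and the cause was not tested. In the order array weights, without 3 libraries, without WT 3 and WT 4, the differences became 0.038, 0.037 and 0.053 for Ndufb11, -0.021, -0.025 and -0.063 for Sdhd, 0.043, 0.049 and 0.095 for Uqcrc1, 0.0013, 0.014 and 0.0091 for Cox6a1, and 0.010, 0.0050 and 0.026 for Atp5mc2. Without 3 libraries and without WT 3 and WT 4, they became -0.012 and -0.024 for Uqcr10 (-0.036 with quantile normalisation) and -0.029 and -0.12 for Atp5f1a. Over the fits that left out 1 library, the difference ran from -0.068 to 0.031 for Sdha, -0.0029 to 0.10 for Sdhd, -0.024 to 0.051 for Uqcr10, -0.11 to 0.076 for Cox7a2 and -0.072 to 0.0051 for Atp5mc2.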
